A study of Mus musculus with 12 samples.

Results

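The genes described here are 9 transcription factor genes of the cortical excitatory lineage, namely Bcl11b, Fezf2, Tbr1, Eomes, Emx1, Emx2, Neurog2, Neurod1 and Neurod6. They were taken by symbol from the 49943 genes of the reference. In the H3K9me3 table their symbols stand on 8 of 50654 regions. The H3K27ac peaks are those in each gene or within 2.5 kb of it. Both marks were measured by native ChIP-seq of 100000 nuclei per library, from C57BL/6 mouse embryos at E15.5. The cells were neural progenitors grown as neurosphere cultures from the ganglionic eminence. The knockout group (KO) is labelled Nestin-KO, and the study's title names the H3K9 methyltransferase SETDB1. Nestin is a gene of neural progenitors, and the labels give neither the allele nor the driver of the deletion. The other group is wild type (WT), and each mark has 3 KO and 3 WT animals. In the H3K9me3 groups the KO animals were 3 males and the WT animals 2 females and 1 male, while in the H3K27ac groups each genotype had 1 female and 2 males. None of the 9 genes lies on a sex chromosome, which does not separate sex from genotype in the H3K9me3 groups.

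Excitatory neurons of the cortex arise from progenitors of the dorsal telencephalon, the pallium, whereas the ganglionic eminence lies below it and yields inhibitory interneurons. In the pallium, Emx1 and Emx2 mark the dorsal progenitors, and Neurog2 directs them towards the glutamatergic fate. Eomes marks the intermediate progenitors, Neurod1 and Neurod6 follow in newborn neurons, and Tbr1, Fezf2 and Bcl11b specify the neurons of the deep layers. Bcl11b is also expressed in neurons that the ganglionic eminence makes, those of the striatum among them. H3K9me3 is a mark of silent chromatin, while H3K27ac is found at promoters and enhancers in use.

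The promoters of the 4 genes that carry a listed H3K9me3 region or an H3K27ac peak are shown first, since the position of both marks is given relative to their starts. They are the 250 bases before the start site, from RefSeq (GRCm38.p6), read 5′ to 3′ on the strand of the gene, and capitals mark each CG dinucleotide. Bcl11b lies on the minus strand (chr12:108003415-108003664), as does Fezf2 (chr14:12345866-12346115). Tbr1 (chr2:61804203-61804452) and Emx2 (chr19:59458440-59458689) lie on the plus strand. At Bcl11b, Fezf2 and Tbr1 the gene span used here begins upstream of this start site, so their windows lie inside the span.
Bcl11b: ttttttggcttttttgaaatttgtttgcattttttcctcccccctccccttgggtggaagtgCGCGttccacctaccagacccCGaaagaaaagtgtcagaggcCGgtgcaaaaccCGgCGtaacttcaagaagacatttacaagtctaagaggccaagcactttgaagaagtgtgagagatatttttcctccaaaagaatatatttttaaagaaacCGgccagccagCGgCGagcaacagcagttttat
Fezf2: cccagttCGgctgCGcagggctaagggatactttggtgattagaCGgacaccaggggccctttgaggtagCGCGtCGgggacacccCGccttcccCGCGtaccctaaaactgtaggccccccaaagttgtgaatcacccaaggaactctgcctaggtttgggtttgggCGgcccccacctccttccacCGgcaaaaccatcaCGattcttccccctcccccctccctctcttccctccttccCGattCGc
Tbr1: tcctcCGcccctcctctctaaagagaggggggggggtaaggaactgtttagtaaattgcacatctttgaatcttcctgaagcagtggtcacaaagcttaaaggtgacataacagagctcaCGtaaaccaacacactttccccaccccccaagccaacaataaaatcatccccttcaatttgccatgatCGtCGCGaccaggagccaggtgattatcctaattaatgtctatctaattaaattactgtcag
Emx2: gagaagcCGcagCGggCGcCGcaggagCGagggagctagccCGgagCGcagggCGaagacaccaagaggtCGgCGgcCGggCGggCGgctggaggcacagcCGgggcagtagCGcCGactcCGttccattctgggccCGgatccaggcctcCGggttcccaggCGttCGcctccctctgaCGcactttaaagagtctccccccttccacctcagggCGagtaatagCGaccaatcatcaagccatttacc
The Emx2 window holds 24 CG dinucleotides and that of Fezf2 14, against 9 in the Bcl11b window and 5 in that of Tbr1. The median of 32851 promoter windows of this length is 6, and 92.1% hold at least 1. All 9 genes had a window in the table, with 3 CG dinucleotides at Neurod6 to 30 at Emx1. The E-box CANNTG, the sequence bound by basic helix-loop-helix factors such as the proteins of Neurog2, Neurod1 and Neurod6, reads the same on both strands. It occurs in 4 of the 9 windows, once each at Tbr1, Emx1 and Neurod1 and 2 times at Neurod6, against 66.2% of all windows.

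H3K9me3 at the listed regions of Bcl11b, Fezf2 and Tbr1 was lower in KO progenitors than in WT progenitors. These 3 of the 9 genes hold all 8 regions, 5 of them in Bcl11b, 1 in Fezf2 and 2 in Tbr1. The values of the KO libraries lay below those of the WT libraries at all 8 regions, with no overlap, against 54.2% of all listed regions. Such separation is common because the table lists only regions that the authors selected for a difference between these libraries. Of the 8 regions, 6 passed limma on log2(value + 1) at a Benjamini-Hochberg adjusted p of 0.05, all of them lower in KO and 0 higher. Over all listed regions 14.9% passed as lower and 1.24% as higher. The regions were selected on these same libraries, so the limma p-values describe them and are no independent test of a loss. The median log2 fold change was -1.64 over the 8 regions and -1.04 over all listed regions. It was also -1.64 over the 6 regions of a list of vascular and mesenchymal genes, given further below. By the adjusted p-values in the authors' deposited table all 8 regions were called lower, against 71.1% of the listed regions, and 0 higher, against 28.9%. The values given below are normalised reads as deposited, 3 per genotype in 1 cell. Which animal each belongs to is not stated, so sex could not be matched to the values. Sex and genotype cannot be told apart in them. The titles of 1 KO and 1 WT library share a first number, while the other 2 KO titles and the other 2 WT titles each carry a number that the other genotype lacks, so for these libraries what the number stands for and the genotype cannot be told apart. In a culture of mixed cells, fewer cells with the mark and less of the mark per cell cannot be told apart.

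Bcl11b encodes a zinc finger factor of subcortically projecting neurons, and is the longest of the 9 genes (chromosome 12, 107910403 to 108004145, minus strand). Its 5 regions are numbered here from the start site onwards, and all lie in the gene body. The first (107969001 to 107970600) had 5.09, 11.34 and 34.46 normalised reads in KO, against 76.23, 65.61 and 80.47 in WT. The third KO value was the highest of its group and still under each WT value. The means were 17.0 ± 15.47 in KO and 74.1 ± 7.65 in WT (SD, n = 3), and limma gave a log2 fold change of -2.43 ± 0.60 (SE) with an adjusted p of 0.0471. It is the steepest change of the 8, and the authors' deposited table lists it at -2.13. The first KO value stands for 2 reads and the second for 26, so the first is the less precise.

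The second Bcl11b region (107967201 to 107968700) lies just beyond the first. Its values were 10.19, 20.49 and 36.98 normalised reads in KO, against 62.04, 68.07 and 76.85 in WT (limma log2 fold change -1.74 ± 0.46, SE; adjusted p = 0.0475). The fourth (107941201 to 107942800) had 5.09, 24.42 and 27.74 in KO, against 56.73, 92.68 and 67.42 in WT (limma -2.13 ± 0.60, SE; adjusted p = 0.0486). Both fell in KO, with the first KO value the lowest. The fifth region (107916701 to 107918000) is the farthest from the start, with its near edge 85.4 kb into the gene. It had 10.19, 11.77 and 30.26 normalised reads in KO, against 60.27, 54.95 and 52.20 in WT (limma -1.78 ± 0.48, SE; adjusted p = 0.0479). The third region (107955501 to 107956600) had 17.83, 11.77 and 26.05 in KO and 39.00, 45.11 and 35.52 in WT, and did not pass limma (-1.12 ± 0.46, SE; adjusted p = 0.0742). Per kb of region, WT levels within the gene ran from 36.3 normalised reads at the third region to 46.3 at the first. The 5 regions together cover 7.10 kb, or 7.57% of the gene, and the nearest to the start begins 32.8 kb into it.

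Fezf2 encodes a zinc finger repressor of the same neurons, upstream of Bcl11b in the mouse cortex. Its single region (chromosome 14, 12340201 to 12344700, gene body) is the longest of the 8, at 4500 bp of a gene of 7812 bp. It had 76.42, 89.81 and 114.30 normalised reads in KO, against 171.95, 302.65 and 385.70 in WT. All 3 KO values lay under the lowest WT value, and the WT values spread more widely. The means were 93.5 ± 19.2 in KO and 287 ± 108 in WT (SD, n = 3), and the limma log2 fold change was -1.55 ± 0.34 (SE; adjusted p = 0.0471). Per kb it had 20.8 normalised reads in KO, against 63.7 in WT, the highest WT level per kb of the 8 and above that of 95.8% of the listed regions. The region starts 1.17 kb past the start site and runs to 5.66 kb past it, so it does not reach the promoter window printed above.

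Tbr1 encodes a T-box factor of layer 6 neurons (chromosome 2, 61802863 to 61814114). Its first region (61805501 to 61808100), in the table's class of promoters within 3 kb, had 38.21, 46.65 and 79.84 normalised reads in KO, against 85.09, 136.97 and 105.85 in WT. The third KO value came close to the lowest WT value without reaching it. With means of 54.9 ± 22.0 in KO and 109 ± 26.1 in WT (SD, n = 3), it did not pass limma (-1.02 ± 0.35, SE; adjusted p = 0.0587). The second region (61810401 to 61812000), in the gene body, had 35.66, 19.18 and 24.37 in KO and 56.73, 81.20 and 96.42 in WT. There the first KO value was the highest of its group, unlike at the other 7 regions. It fell in KO, with a limma log2 fold change of -1.54 ± 0.36 (SE; adjusted p = 0.0471).

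**Figure D1:**
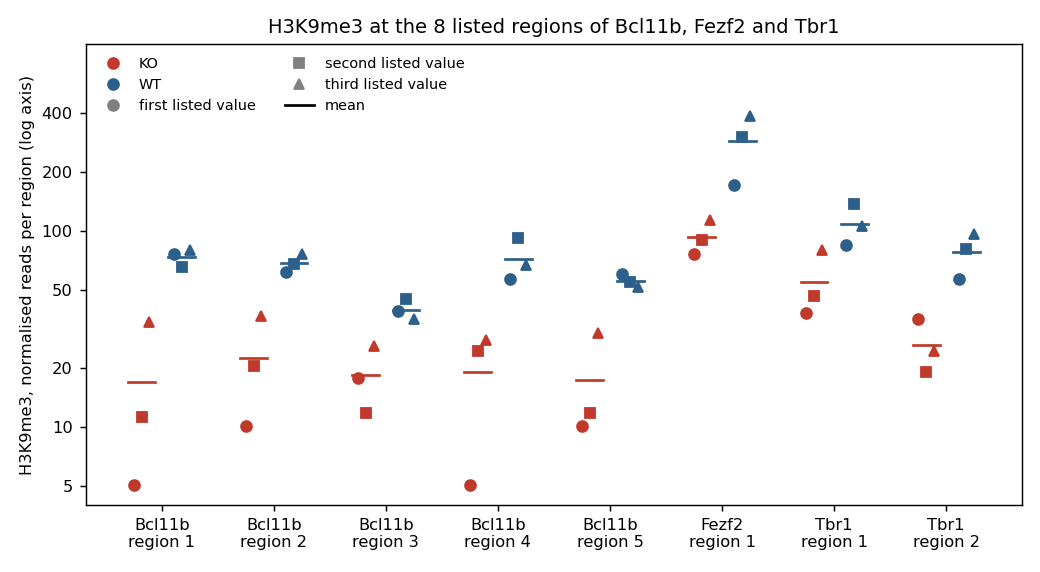
Normalised H3K9me3 reads (log axis) at the 8 listed regions, with 1 point for each listed value and a line at the mean of 3; red is KO and blue is WT. At each region the 3 KO points lie below the 3 WT points, most narrowly at Tbr1 region 1, and Fezf2 has the highest values.

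The third listed KO value was the highest of the KO values at 7 of the 8 regions, and the first was the lowest at 6. Over all listed regions these shares were 73.8% and 57.5%. The steps of the values give whole reads for 100% of low values (within 0.1 reads), and by them the first KO position has, under the authors' scaling, 17.1% of the depth of the second. At the 8 regions the first KO value rests on 2 to 30 reads. The adjusted p-values of the 6 regions lie between 0.0471 and 0.0486, close to the threshold. With limma-voom on the recovered reads, all 8 regions passed as lower, against 58% of the listed regions, with adjusted p from 0.00171 to 0.0133. Median-ratio scaling of the 6 libraries brings the median of all regions to -0.20. Its factors came from the listed regions only, of which the authors called 71.1% lower in KO. It thereby takes out part of a change that these regions share. After this scaling 3 of the 8 passed as lower and 0 as higher, against 5.54% and 27.7% of the listed regions. The 3 are Bcl11b regions 1, 2 and 5 (limma adjusted p = 0.0168, 0.0493 and 0.0468). Fezf2 had -0.70 there (limma adjusted p = 0.186) and the Tbr1 regions -0.18 and -0.70 (0.671 and 0.252). With the third KO value left out all 8 passed, and with the first or the second KO value or any WT value left out, or with no trend in limma, 0 did. Over all listed regions, 30932 of 50654 passed as lower without the third KO value, and 0 under each of those other settings.

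**Figure D2:**
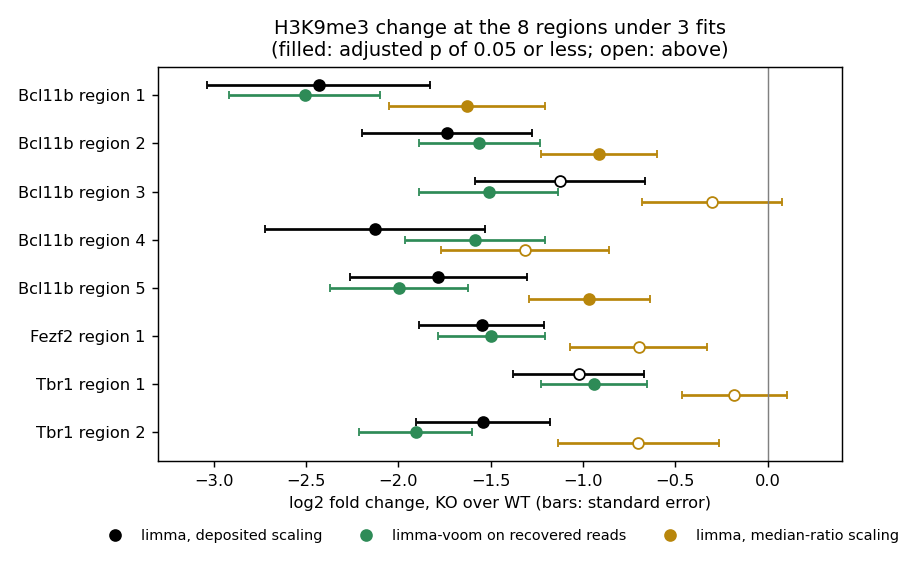
Log2 fold change of KO over WT with its standard error at the 8 regions, under limma on the deposited scaling (black), limma-voom on recovered reads (green) and limma after median-ratio scaling (ochre); filled points passed an adjusted p of 0.05. All estimates lie below 0, and under median-ratio scaling only Bcl11b regions 1, 2 and 5 are filled.

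Eomes, Emx1, Emx2, Neurog2, Neurod1 and Neurod6 have no row in the table, and no listed region lies within 2.5 kb of any of them. The table lists selected regions only, so a gene without a row may carry the mark at a level that did not meet the selection. Of 21887 protein-coding genes in the reference, 21.7% have a row by symbol. The nearest listed region to Neurog2 (chromosome 3) lies 4.77 kb past its end (127640401 to 127642500, intergenic). It had 33.12, 39.24 and 38.66 normalised reads in KO, against 90.41, 91.04 and 102.22 in WT, and passed limma (adjusted p = 0.0471). For Neurod1 the nearest lies 14.7 kb away (chromosome 2, 79471301 to 79473400), with 12.74, 22.24 and 54.63 in KO, against 88.64, 112.36 and 79.75 in WT (limma adjusted p = 0.0478). In both intervals the KO values lay below the WT values. For Neurod6 it lies 40.8 kb away (authors' deposited log2 fold change -1.28; limma adjusted p = 0.0489), and for Emx2 29.2 kb away, within its divergent neighbour Emx2os (-1.77; limma adjusted p = 0.0599). For Emx1 and Eomes it lies 76.2 and 123 kb away, and neither region passed limma (adjusted p = 0.0652 and 0.105).

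H3K27ac at these genes was sparse in both genotypes. Tbr1, Eomes, Emx1, Neurog2, Neurod1 and Neurod6 had 0 peaks in or within 2.5 kb of the gene in all 6 libraries. These are 6 of 9 genes, against 57.5% of all genes of the reference and 35.9% of the protein-coding genes with 0 peaks in any library. Bcl11b and Emx2 had peaks in 2 KO and 2 WT libraries each, and Fezf2 in 1 WT library. A gene with 0 peaks may still carry acetylation under the threshold of the peak caller, and the depth of these libraries is unknown. The peak lists hold 26393, 42712 and 11502 peaks in KO replicates 1, 2 and 3 and 31951, 37342 and 12505 in WT replicates 1, 2 and 3, so the lists of replicate 3 are the shortest in both genotypes. The targeted gene, Setdb1, had H3K27ac peaks in each KO library and in WT replicates 1 and 2. A histone mark there does not check the deletion.

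Bcl11b had 141, 641 and 0 bases in peaks in KO replicates 1 to 3 and 419, 1295 and 0 in WT replicates 1 to 3. The groups overlap, and the third library of each genotype is at 0. The means were 261 ± 337 bases in KO and 571 ± 661 in WT (SD, n = 3), with an exact permutation p of 0.7 (two-sided; 0.1 is the smallest that 3 against 3 can give). Adjusted over all genes the p is 1, as for every gene tested. At most 1.31% of the gene and its flanks was in peaks. Peaks stood at 8 sites, of which 3 were shared by 2 libraries and the others were seen in 1 library each. One shared site lies 517 bases before the start site (108003803 to 108004059), 139 bases beyond the printed window. It is still inside the gene span, which reaches 108004145, and had a fold enrichment of 4.3 in KO replicate 2 and 5.05 in WT replicate 2. Fold enrichment is the authors' own value for each peak. Another shared site lies deep in the gene body (107952505 to 107952846), at 4.75 in KO replicate 2 and 5.44 in WT replicate 2, above 67.2% and 81.8% of the peaks in their lists. It is also the site nearest to an H3K9me3 region, 2.66 kb from the third. The remaining shared site (107980166 to 107980351) had peaks in KO replicates 1 and 2, and WT replicate 2 had a peak about as deep in the gene (107980581 to 107980842) that does not overlap it.

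Emx2, a homeobox gene of dorsal progenitors (chromosome 19, 59458690 to 59465357), had 425, 480 and 0 bases in peaks in KO replicates 1 to 3, against 0, 1152 and 287 in WT replicates 1 to 3. The groups overlap, with 1 library at 0 in each, KO replicate 3 and WT replicate 1. The means were 302 ± 263 bases in KO and 480 ± 600 in WT (SD, n = 3), with an exact permutation p of 0.9. A site 1.41 kb past the start (59459908 to 59460289) was found in 4 libraries, more than any other site of the 9 genes. Its fold enrichment was 3.24 and 3.20 in KO replicates 1 and 2 and 2.59 and 2.88 in WT replicates 2 and 3. By fold enrichment these are weak peaks, above 1.48% to 12.0% of the peaks in their own lists. Their -log10 q, also the authors' own value, ran from 3.10 in WT replicate 3 to 9.16 in KO replicate 2. A second site (59458133 to 59458502) reaches into the CG-rich promoter window printed above, with peaks in KO replicate 1 and WT replicate 2. It also lies in Emx2os, which ends at 59458635, so it cannot be assigned to either gene. The other sites lie before the start in KO replicate 1 and past the end of the gene in KO replicate 2 and WT replicate 2.

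Fezf2 had 0 bases in peaks in all 3 KO libraries and 181, 0 and 0 in WT replicates 1 to 3 (exact permutation p = 1). The 1 peak (chromosome 14, 12338382 to 12338562) lies past the end of the gene, 1.64 kb from its H3K9me3 region, with a fold enrichment of 7.11, above 90.1% of the peaks in its list. In the other 5 libraries the peak nearest to Fezf2 was 54.0 to 54.4 kb away. At the genes with 0 peaks, the distance of the nearest peak ran over the 6 libraries from 38.0 to 90.7 kb at Tbr1 and from 19.8 to 437 kb at Eomes. For Emx1 it was 49.7 to 49.9 kb, for Neurog2 58.3 to 202 kb, for Neurod6 59.4 to 225 kb and for Neurod1 85.5 to 404 kb.

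**Figure D3:**
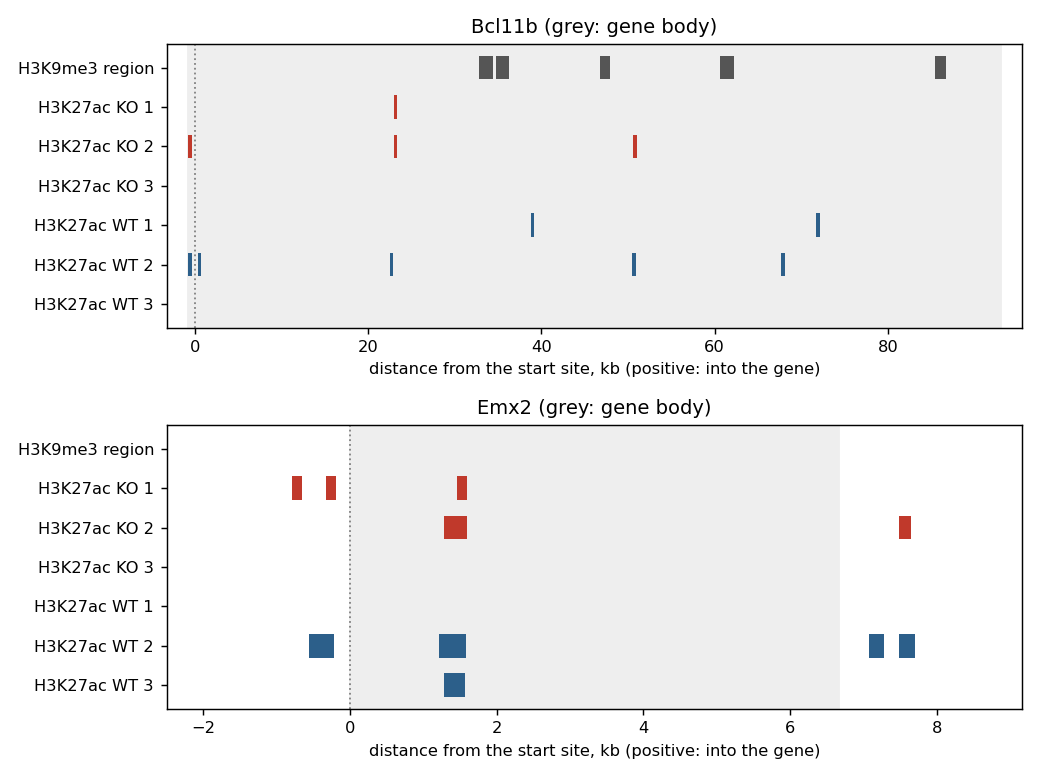
Positions along Bcl11b and Emx2 by distance from the start site in kb, with the listed H3K9me3 regions on top and the H3K27ac peaks of each library under them (red KO, blue WT); peaks in the Bcl11b panel are drawn wider than to scale. In Bcl11b the H3K9me3 regions begin 32.8 kb into the gene and none meets a peak, and in Emx2 the site 1.41 kb past the start is found in 4 libraries.

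None of the 9 genes had H3K27ac coverage that separated the genotypes. Over all genes of the reference, coverage was higher in all 3 KO libraries than in all 3 WT libraries at 0.0541%, and lower at 0.024%, so a count of 0 among 9 is near what those shares give. The H3K27ac titles carry 1 number for replicate 1 of both genotypes and another for replicates 2 and 3, and what these numbers stand for is not stated. Between the 2 libraries of replicate 1, Bcl11b had 141 bases in KO and 419 in WT, while Emx2 had 425 in KO and 0 in WT. Among the 4 libraries of replicates 2 and 3, Bcl11b had 641 and 0 bases in KO and 1295 and 0 in WT, and Emx2 had 480 and 0 in KO and 1152 and 287 in WT. With genotype permuted only within title numbers, an alternative chosen after seeing the data, the exact p was 0.667 for Bcl11b, 0.833 for Emx2 and 1 for Fezf2, where 12 arrangements allow no two-sided p under 0.167. No member H3K9me3 region overlapped an H3K27ac peak of any library, and the distance to the nearest was 1.64 kb at Fezf2, 2.66 to 13.4 kb at Bcl11b and 40.6 and 45.5 kb at Tbr1.

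**Figure D4:**
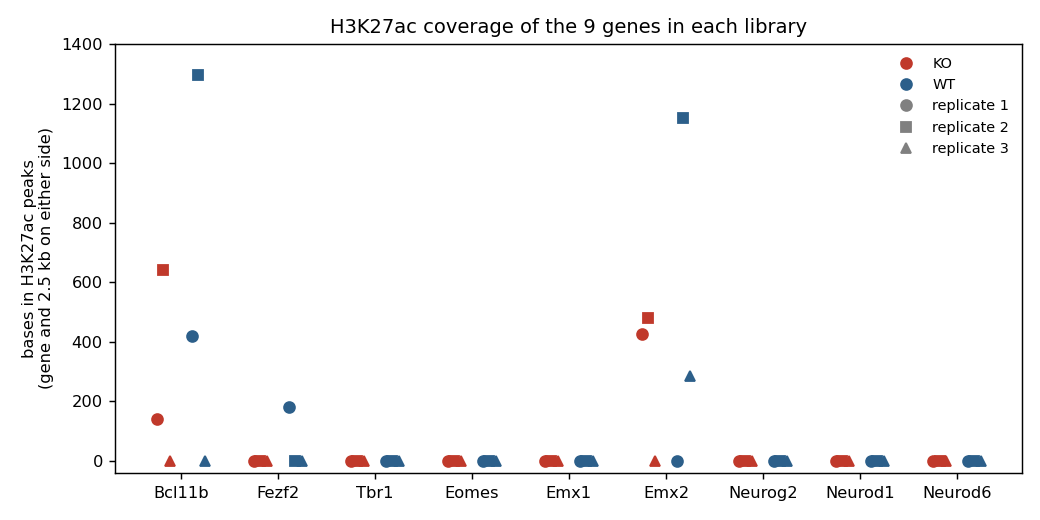
Bases in H3K27ac peaks, in the gene and 2.5 kb on either side, for each of the 9 genes and 6 libraries; red is KO, blue is WT and the symbol gives the replicate. Bcl11b and Emx2 have up to 1295 and 1152 bases, Fezf2 has 181 in 1 WT library, and the other 6 genes are at 0 throughout.

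Few of the 9 genes, and few markers of the tissue the cultures came from, had an H3K27ac peak. A peak was found at 2, 2 and 0 of the 9 genes in KO and at 2, 2 and 1 in WT. For 16 subpallial genes the counts were 3, 3 and 0 in KO and 4, 4 and 2 in WT, and 10 of them, among them Dlx2, Dlx5, Dlx6, Gsx2, Nkx2-1 and Lhx6, had 0 peaks in all 6 libraries. The labelled eminence origin is thus not seen in acetylation at most of its defining transcription factors. Of 8 neural progenitor genes, 6, 7 and 4 had a peak in KO and 8, 7 and 5 in WT, with Nes, Vim and Fabp7 in all 6 libraries. Of 8 glial genes, 7, 8 and 6 had a peak in KO and 7, 8 and 1 in WT. Of 7 microglia and blood genes, 0, 2 and 0 had a peak in KO and 2, 1 and 0 in WT; Csf1r had one in 3 libraries and Ptprc in 2, and Aif1, Cx3cr1, Tyrobp, Hba-a1 and Hbb-bs in 0. Of 8 vascular and mesenchymal genes, 2, 3 and 2 had a peak in each genotype; Pecam1 had one in all 6 libraries, Col1a1 in 5 and Tek in 3, and Cldn5, Cdh5, Pdgfrb, Col1a2 and Lum in 0. Summed over each list, coverage per kb of window was 0 to 5.62 bases in KO and 1.44 to 12.3 in WT at the 9 genes. At the subpallial genes it was 0 to 9.63 in KO and 2.19 to 10.3 in WT, and at the glial genes 7.74 to 36.2 in KO and 2.84 to 31.1 in WT. The part of these other cells in the values of the 9 genes was not tested. Over all 49943 genes of the reference, whose median window is 10956 bp, 17.2% to 36.2% had a peak in KO and 18.4% to 34.8% in WT. Over all protein-coding genes 29.7% to 57.5% had a peak in KO and 31.7% to 57% in WT. The windows of the 9 genes have a median of 12812 bp, against 22169 bp for all protein-coding genes, and a longer window has more room for a peak.

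**Figure D5:**
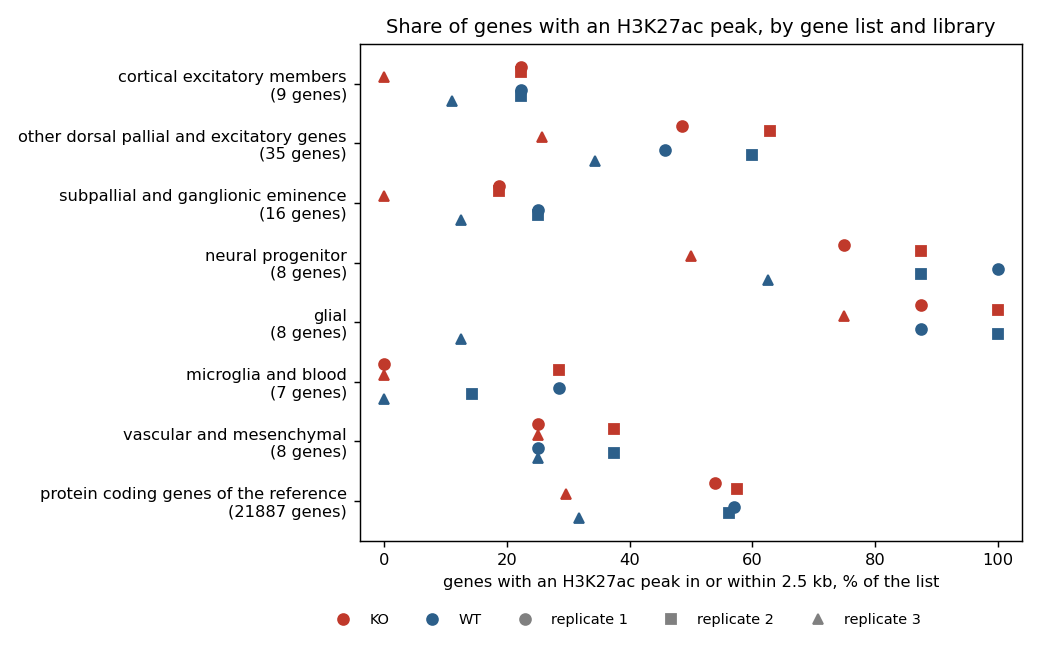
Percentage of the genes of each list with an H3K27ac peak in or within 2.5 kb, by library; red is KO, blue is WT and the symbol gives the replicate. The 9 cortical excitatory genes and the 16 subpallial genes lie at or below 25% in every library, and the progenitor and glial genes reach 100% in at least 1.

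Among 35 other genes of the dorsal pallium and the excitatory lineage, 18 had an H3K9me3 row, with 31 regions listed as lower in KO and 3 as higher. By the authors' adjusted p-values 71.1% of all listed regions were called lower. Of the 34 regions, 8 passed limma as lower and 0 as higher, against 14.9% and 1.24% of all listed regions. The median log2 fold change of the 34 was -1.23, against -1.04 over all listed regions. Cux2, a homeobox gene of upper-layer neurons that some interneurons also express (chromosome 5, 122036901 to 122038800, gene body), averaged 20.2 ± 18.2 normalised reads in KO progenitors and 82.1 ± 22.8 in WT progenitors (SD, n = 3), with a limma adjusted p of 0.0471. Sox5, a factor of deep-layer neurons (chromosome 6, 144190001 to 144192600), averaged 46.5 ± 36.5 in KO against 154 ± 44.4 in WT (limma adjusted p = 0.0476). Dmrta2, a factor of dorsal midline patterning, averaged 37.0 ± 15.0 in KO against 87.0 ± 9.41 in WT (limma adjusted p = 0.0494). The 3 regions listed as higher, 1 in the glutamate transporter gene Slc17a6 and 2 in the netrin receptor gene Unc5d, were named after their values were seen, and did not pass limma (adjusted p = 0.104 to 0.245). After median-ratio scaling 3 of the 34 passed as lower and 3 as higher, against 5.54% and 27.7% of all listed regions. Of the 16 subpallial genes, 7 had an H3K9me3 row, and of their 10 regions, all listed as lower, 1 passed limma (Nr2f2, adjusted p = 0.0471). Of the 8 vascular genes 3 had a row, with 6 regions listed as lower, of which 3 passed limma. The median log2 fold change of these 6 was -1.64, the same as at the regions of the 9 genes. It was -1.06 over the 10 subpallial regions and -1.05 over the 2 regions of the progenitor genes. Of the 8 progenitor genes only Prom1 had a row, with 2 regions that did not pass, and the glial, microglia and blood genes had 0 rows. Of the 35 genes, whose median window is 47716 bp, 7, among them Pax6 and Sox5, had an H3K27ac peak in all 6 libraries, and 13, among them Neurog1, Neurod2, Slc17a7 and Bhlhe22, had 0 peaks in any.

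The regions whose 6 values were most like those of Bcl11b region 1 lay in the gene bodies of Exoc6b, Anks1b and Atf7ip. Likeness was the Euclidean distance over log2(value + 1) of the 6 listed values, at 0.19, 0.27 and 0.31. The Exoc6b region (chromosome 6, 84720601 to 84722200) had 5.09, 10.90 and 33.62 normalised reads in KO, against 81.54, 72.18 and 84.10 in WT. Its values have the same order within KO, which the choice by likeness favours, and the third KO value was the highest at 73.8% of all listed regions. These likenesses are a description over 6 libraries, and the regions were chosen from 13772 with a gene.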

How the data were processed

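Per the submitters' processing notes, reads were processed with Bowtie2 2.3.4.3 and MACS2 against mm10. The tool that compared H3K9me3 between genotypes was not given in the sources used here. Per the file headers, the authors deposited for H3K9me3 normalised read counts per library joined by genotype, group means as a normalised signal, a log2 fold change of KO over WT and p-values for regions built from windows of 1000 bp. For H3K27ac the authors deposited 1 peak list per library with a score, a fold enrichment (a ratio) and -log10 p and q values. No per-sample column was left unused.

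The main test, limma 3.58.1 in R 4.3.3, took log2(value + 1) at all 50654 listed regions, with its trend option and Benjamini-Hochberg adjustment. The authors' selection of regions rests on these same libraries, so the limma p-values are not independent of it. Limma-voom used reads recovered from the steps, with library sizes set by the steps. H3K27ac coverage was counted within 2.5 kb of 49943 RefSeq genes (GRCm38.p6, the same assembly as mm10) and compared with exact permutation tests. Start sites were those of the promoter table. limma and the counting were tested on simulated data. The limma p-values set the difference between KO and WT against the spread between libraries, moderated over all listed regions. That spread also holds the uneven depth of the libraries, and neighbouring regions are not independent. The 9 genes and the other lists were chosen with earlier results of these data known. Genes named beside the 9 were Setdb1, up to 4 per list by smallest authors' adjusted p (then largest fold change), and the 3 most like the leading Bcl11b region; others are named from presence or absence of peaks, after their values were seen. One gene that this rule names is not reported here.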

Additional observations from a re-analysis of the deposited data

How the results depend on the processing

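The count of member H3K9me3 regions passing limma as lower in KO was 6 as reported. It was 3 with median-ratio scaling and 0 without trend, and leaving out 1 listed value gave 0 to 8 (0 without the first or second KO value or any WT value, 8 without the third KO value). Over all listed regions those same settings also gave 0 lower calls without trend, and 0 to 30932 on leaving out a value, with 12340 to 32208 at an unadjusted p of 0.05 or less. With pseudocounts of 0.5 and 5, a mean of at least 20, autosomes only, limma-voom, overlap by position or the authors' p-values it was 5 to 8. The count of regions passing as higher was 0 throughout. No log2 fold change of the 8 regions changed sign under any alternative run. The counts of genes with separated H3K27ac coverage were 0 in both directions under each alternative except within the 2 libraries of replicate 1, which share a title number, where 1 gene (Emx2) was higher and 2 (Bcl11b and Fezf2) were lower, with 1 library a genotype, against 15.3% and 22.1% of all genes. No paired analysis was possible because the replicate numbers were given in accession order and the listed H3K9me3 values are not tied to animals. The title numbers of the H3K27ac libraries are not said to pair animals. Permuting within them could not move a call, since 12 arrangements allow no two-sided p under 0.167. Precision is limited by the first KO position, at 2 to 30 reads per region. The H3K27ac lists give no depth, so weak acetylation is not detectable in them.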

Other observations

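Beyond their own rows, 25 listed H3K9me3 regions lie within 100 kb of 1 of the 9 genes, and all 25 have a negative log2 fold change in the authors' deposited table, from -2.11 to -0.74 with a median of -1.37. By the authors' adjusted p-values 71.1% of all listed regions were called lower, and the authors' median over all of them was -0.94. Of the 25, 9 passed limma as lower in KO and 0 as higher (adjusted p of 0.05 or less), against 14.9% and 1.24% of all listed regions. Neighbouring regions are not independent of each other. No listed region lies within 100 kb of Eomes.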
